A study of Mus musculus with 24 samples.

Results

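The genes described here are 10 enzymes and transporters that process foreign and reactive compounds, measured in primary murine bone marrow-derived macrophages (BMDMs). They were taken from the deposited expression table by symbol, and are the reductases Nqo1, Cbr1 and Cbr3, the epoxide hydrolase Ephx1, the glutathione transferases Gstm1, Gstp1 and Mgst1, and the efflux pumps Abcc1, Abcc4 and Abcc5. The symbols were 10 of the 35770 that the table lists, and each passed the filter on low values, which kept the 13661 genes that exceeded 1 TPM in 3 or more libraries. TPM is a gene's share of all transcripts on a fixed total, corrected for its length, so levels of different genes may be set side by side. Between libraries the share also depends on all other genes. The tests therefore used values scaled between libraries, while levels in the text are unscaled.

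The study asked how media conditioned by lung cancer cells that lack KEAP1, and the NRF2 activator CDDO-Me, change macrophages. The data are RNA from 24 libraries, 3 for each of the 8 groups. Progenitors flushed from the femurs and tibias of C57BL/6 mice became BMDMs under M-CSF at 20 ng/mL, which all groups received, and the ages of the mice are not given in the sources used here. The macrophages were then given either unconditioned media (media) or conditioned media (CM) that made up 75% of the volume, together with vehicle or CDDO-Me at 100 nM for 24 h. CM came from LL2 cells, a Lewis lung carcinoma line derived from C57BL/6 mice, that were wild type (WT), KEAP1 KO or NRF2 KO and had conditioned the media for 48 h. The deletions were made by CRISPR in the cancer cells, so every macrophage measured here carried both genes, and Keap1 (15.1 to 64.1 TPM) and Nfe2l2, which encodes NRF2 (90.6 to 459 TPM), were measured in every library. Groups are named by medium and treatment, such as WT/vehicle or KEAP1 KO/CDDO-Me. The labels call the 3 libraries of a group replicates but do not say whether they came from separate mice, so the p-values measure the spread between these samples only.

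NRF2 is a transcription factor that the adaptor KEAP1 holds at a low level by marking it for destruction. Electrophiles such as the triterpenoid CDDO-Me modify KEAP1, NRF2 then accumulates, enters the nucleus and binds antioxidant response elements (AREs) near its target genes. Those targets include enzymes of both steps of detoxification: reductases and hydrolases that remove reactive carbonyl, quinone and epoxide groups, and transferases that attach glutathione. The conjugates then leave the cell through pumps of the ABCC family. In macrophages these enzymes are known for handling oxidants and lipid electrophiles that the cell itself produces.

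The sequence of the ARE core is shown first because all 10 genes have been described as NRF2 targets in at least some tissues. Stretches were read from GRCm39, the build the authors used, within 1000 bases upstream and 200 bases downstream of the start of each gene's canonical GENCODE transcript. They are printed with 10 bases on either side, 5′ to 3′ on the strand named, with the motif match in capitals. For each gene shown this is the match to the stricter form of the core where there was one, and otherwise the match nearest to the start.
Nqo1, chr8:108130255-108130283, minus strand: agagtcacagTGAGTCGGCaaaatttgag
Cbr3, chr16:93479366-93479394, minus strand: tcactcacagTGATTCAGCgtttcccgag
Cbr1, chr16:93404433-93404461, plus strand: gtcagtcattTGACCTGGCcggttttttt
Ephx1, chr1:180845732-180845760, plus strand: acagacaagaTGACCAGGCacaccactgt
Gstp1, chr19:4087968-4087996, minus strand: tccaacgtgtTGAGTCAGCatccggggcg
Mgst1, chr6:138118681-138118709, plus strand: aggtcggcgaTGACAGGGCtccagagaca
The match lay 339 bases upstream of the start in Nqo1, 350 bases upstream in Cbr3, 262 bases upstream in Cbr1, 616 bases upstream in Ephx1, 82 bases downstream in Gstp1 and 107 bases downstream in Mgst1. The core TGACNNNGC, searched on both strands, was found in 3 of the 10 members (Cbr1, Ephx1 and Mgst1), compared with 35% of the 21603 protein-coding genes searched in the same way. The looser form TGANNNNGC, which contains the first, was found in 7 of 10 members and in 84.9% of genes, and Gstm1, Abcc1 and Abcc5 held no match. The xenobiotic response element core GCGTG was found in 10 of 10 members and in 64.4% of genes. These are matches of letters only, and neither form of the ARE core was more frequent among the members than among all genes.

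The identity of the cells was checked before the members were compared. All 9 macrophage markers were above 0 in every library, and their summed level was 19927 to 39937 TPM. Of the fibroblast markers, 10 of 10 were measured and only Lum was at 0, in 1 library, and their sum ranged from 213 to 2371 TPM. It was 906 to 1653 TPM in media/vehicle, 671 to 1391 TPM in WT/vehicle, 946 to 1823 TPM in KEAP1 KO/vehicle and 708 to 2371 TPM in NRF2 KO/vehicle. With CDDO-Me it was 741 to 2045 TPM in media, 266 to 723 TPM in WT CM, 213 to 966 TPM in KEAP1 KO CM and 361 to 1651 TPM in NRF2 KO CM. The sum was lowest in replicate 3 and highest in replicate 2 in each of the 8 groups. Neutrophil markers summed to 10.3 to 71.3 TPM and were higher on average with CDDO-Me in each medium, while the granulocyte marker Ly6g was at 0 in 19 of the 24 libraries. Lymphocyte markers reached at most 2.65 TPM and epithelial markers 9.23 TPM. Replicate 3 stood apart in NRF2 KO CM with and without CDDO-Me. NRF2 KO/vehicle and NRF2 KO/CDDO-Me replicate 3 had 15702 and 16299 genes above 0, where the others had 17817 to 18993. In bulk RNA, fewer cells of a type and less RNA per cell cannot be told apart, and the part of other cell types in the results below was not tested.

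Without CDDO-Me, the members differed widely from one another and little between media. Mean levels in media/vehicle BMDMs ran from 3.37 TPM for Nqo1 and 7.74 TPM for Abcc4 to 173 TPM for Mgst1 and 279.7 TPM for Gstm1. None of the 10 members passed the test between WT/vehicle and media/vehicle (limma, 1 of 10 at an unadjusted p under 0.05, against 17.9% of all genes), where 7.23% of all genes tested were called. Between KEAP1 KO/vehicle and media/vehicle, 2 of 10 members were called and both were lower with CM, where 8.06% of all genes were called and 3.19% were called lower. No member was called between NRF2 KO/vehicle and media/vehicle (2 of 10 at an unadjusted p under 0.05, against 12.1% of genes), and 0.00732% of genes were called.

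The members that were lower with KEAP1 KO CM were Gstm1, a cytosolic glutathione transferase of the mu class, and Abcc5, a pump for organic anions and cyclic nucleotides. Gstm1 was at 307, 271 and 261 TPM in media/vehicle, 193, 163 and 204 TPM in WT/vehicle, 166, 151 and 192 TPM in KEAP1 KO/vehicle and 321, 269 and 250.2 TPM in NRF2 KO/vehicle. All WT/vehicle and KEAP1 KO/vehicle libraries were below all media/vehicle and NRF2 KO/vehicle libraries. On the log2 scale Gstm1 was -0.72 ± 0.17 (SE) in KEAP1 KO/vehicle against media/vehicle (limma, adjusted p = 0.0101) and -0.51 ± 0.17 in WT/vehicle against media/vehicle (limma, adjusted p = 0.0804). Replicates of the same number deviated together in the second comparison, and with the replicate number as a block its adjusted p was 0.0118. The KEAP1 KO call was lost without media/vehicle replicate 1 (-0.65, adjusted p = 0.0606) and without KEAP1 KO/vehicle replicate 2 (-0.62, adjusted p = 0.067).

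Abcc5 was at 89.5, 82.5 and 83.1 TPM in media/vehicle, 61.5, 63.7 and 70.5 TPM in WT/vehicle, 62.3, 65.0 and 48.2 TPM in KEAP1 KO/vehicle and 70.5, 80.9 and 41.5 TPM in NRF2 KO/vehicle. The media/vehicle libraries were above every CM/vehicle library. The log2 difference was -0.54 ± 0.15 for KEAP1 KO against media (limma, adjusted p = 0.0281), -0.31 ± 0.15 for WT (adjusted p = 0.286) and -0.45 ± 0.15 for NRF2 KO (adjusted p = 0.408). The KEAP1 KO call for Abcc5 was lost without media/vehicle replicate 1 (-0.50, adjusted p = 0.117), replicate 2 (-0.57, 0.0619) or replicate 3 (-0.55, 0.0696), and without KEAP1 KO/vehicle replicate 3 (-0.43, 0.14). It was also lost without scaling between libraries (-0.54, adjusted p = 0.0552).

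In the fit without a replicate block, no member passed the test when KEAP1 KO/vehicle or NRF2 KO/vehicle was compared with WT/vehicle. KEAP1 KO/vehicle was not compared with NRF2 KO/vehicle. Between KEAP1 KO/vehicle and WT/vehicle, 0 of 10 members and 0 of all genes were called (limma, 0 members and 2.56% of genes at an unadjusted p under 0.05), and log2 differences of the members lay between -0.23 and 0.17. Between NRF2 KO/vehicle and WT/vehicle, 0 of 10 members were called (limma, 3 at an unadjusted p under 0.05, against 27.5% of genes) where 10.6% of genes were called. The nearest were Mgst1 (-0.56 ± 0.18, adjusted p = 0.0576), Gstm1 (0.51 ± 0.17, adjusted p = 0.0616) and Cbr3 (-0.81 ± 0.31, adjusted p = 0.0966). With the replicate number as a block 3 members were called in this comparison, where 2550 of 13661 genes were called. Mgst1 (limma, adjusted p = 0.00444) and Gstm1 (0.00991) were among the 3, and Cbr3 (0.0758) was not. The value for Cbr3 rested on replicate 3 of NRF2 KO/vehicle, at 6.17 TPM against 23.2 and 27.4 TPM in the other libraries of its group, and was -0.23 (adjusted p = 0.483) without it. Cbr3 was called without NRF2 KO/vehicle replicate 1 (-1.06, adjusted p = 0.0332) or replicate 2 (-1.14, adjusted p = 0.0194), and Gstm1 without replicate 2 (0.58, adjusted p = 0.0493).

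**Figure D1:**
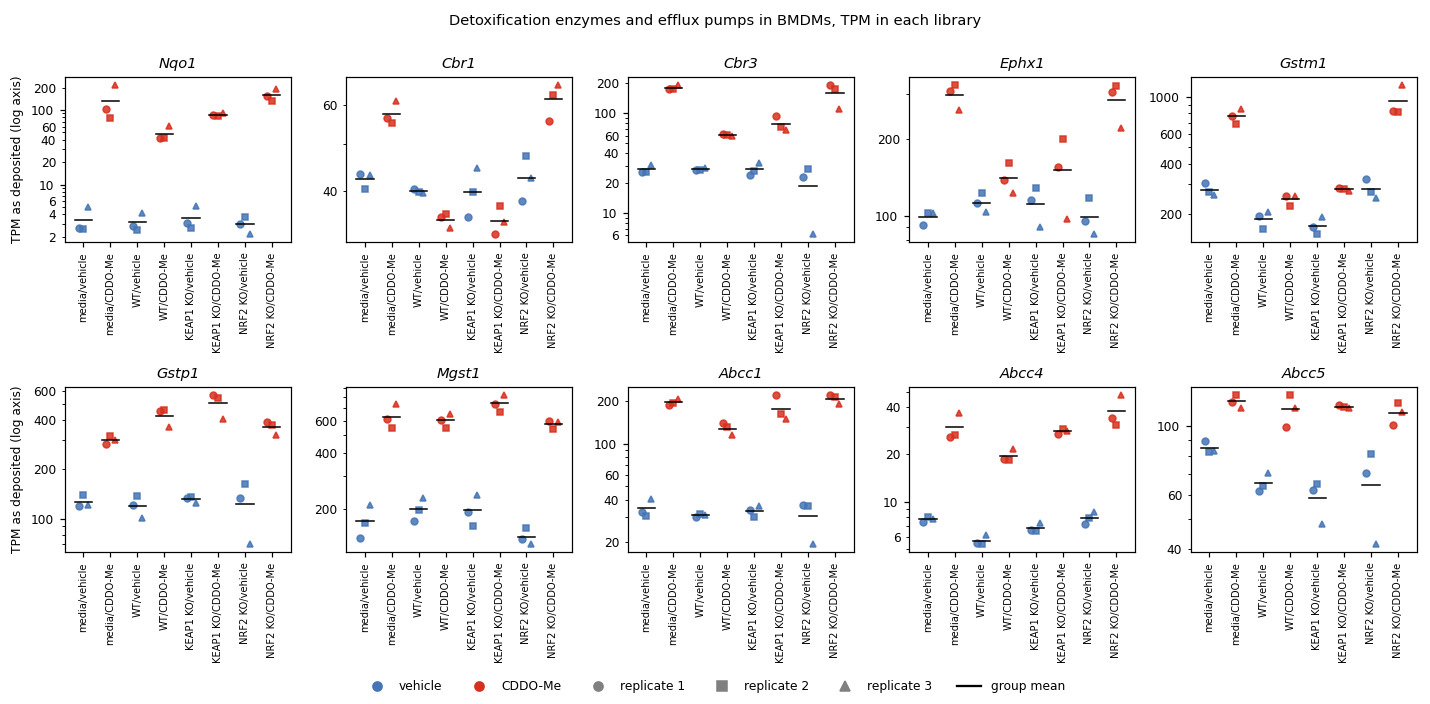
TPM as deposited (log axis) of each member in each of the 24 libraries, by group, with vehicle in blue, CDDO-Me in red, the replicate number as the marker and the group mean as a line. Nqo1 lies between 2.16 and 5.16 TPM in all vehicle libraries and between 41.6 and 219 TPM in all CDDO-Me libraries, while Cbr1 stays between 32.7 and 66.0 TPM throughout.

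CDDO-Me raised nearly all members in every medium. In media, 9 of 10 rose and none fell, where 3.22% of all genes tested were called higher. In WT CM, 8 of 10 rose (14.4% of all genes), in KEAP1 KO CM 9 of 10 rose (14.4% of all genes) and in NRF2 KO CM 10 of 10 rose (4.87% of all genes). Every CDDO-Me library was above every vehicle library of its medium, in TPM, for 10 members in media and 10 in NRF2 KO CM, where 13.3% and 7.6% of all genes had this pattern. In WT CM and in KEAP1 KO CM it was 8 members each, where 19.3% and 16.7% of all genes had it. Each of these comparisons has its own vehicle libraries. Without the NRF2 KO replicate 3 libraries of both treatments, the counts were 10 in media, 9 in WT CM, 9 in KEAP1 KO CM and 10 in NRF2 KO CM. All genes called in either direction in that fit were 2021 in media, 5838 in WT CM and 6076 in KEAP1 KO CM. Fitted on the 6 libraries of NRF2 KO CM alone, 7 of 10 members were called there, where 103 of 12603 genes were called higher. Cbr1 (limma, adjusted p = 0.269), Gstp1 (0.0624) and Abcc5 (0.218) were not called in that fit. The median log2 fold change of the members was 1.70 in media, 1.48 in WT CM, 1.84 in KEAP1 KO CM and 1.92 in NRF2 KO CM, and the median of all genes tested lay between -0.020 and 0.016 in these comparisons.

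Nqo1 (chr8:108113835-108129934, minus strand) encodes a quinone reductase that passes 2 electrons to quinones and so avoids semiquinone radicals, and it is a standard readout of NRF2 activity. It was at 2.63, 2.51 and 4.96 TPM in media/vehicle, 2.83, 2.45 and 4.23 TPM in WT/vehicle, 3.08, 2.60 and 5.16 TPM in KEAP1 KO/vehicle and 3.00, 3.70 and 2.16 TPM in NRF2 KO/vehicle. With CDDO-Me it was at 104, 79.0 and 219 TPM in media, 41.6, 42.7 and 60.5 TPM in WT CM, 85.8, 83.5 and 90.8 TPM in KEAP1 KO CM and 156, 133 and 189.8 TPM in NRF2 KO CM. It was the lowest member without CDDO-Me in every medium, and no vehicle library came near a CDDO-Me library. The log2 fold change was 4.86 ± 0.33 in media, 3.69 ± 0.33 in WT CM, 4.44 ± 0.33 in KEAP1 KO CM and 5.37 ± 0.33 in NRF2 KO CM (limma, adjusted p from 2.05e-09 to 3.04e-08), or 29.0-fold, 12.9-fold, 21.7-fold and 41.3-fold on the scale of scaled TPM plus 1. Nqo1 had the largest change of the 10 members in each medium. Its spread with CDDO-Me was widest in media, where replicate 3 was at 219 TPM, and narrowest in KEAP1 KO CM.

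Cbr1 (chr16:93402741-93407393, plus strand) and Cbr3 (chr16:93479726-93487879, plus strand) lie close to each other on the same strand and encode cytosolic carbonyl reductases that turn aldehydes, ketones and quinones into alcohols. Cbr3 rose with CDDO-Me in each medium, and Cbr1 in media and in NRF2 KO CM. Cbr1 was at 43.3, 40.3 and 43.2 TPM in media/vehicle, 40.4, 39.9 and 39.7 TPM in WT/vehicle, 35.3, 39.8 and 44.7 TPM in KEAP1 KO/vehicle and 38.1, 47.2 and 42.5 TPM in NRF2 KO/vehicle. With CDDO-Me it was at 56.3, 55.2 and 61.0 TPM in media, 35.4, 35.9 and 33.7 TPM in WT CM, 32.7, 37.2 and 34.6 TPM in KEAP1 KO CM and 55.7, 62.9 and 66.0 TPM in NRF2 KO CM. The CDDO-Me libraries were therefore above the vehicle libraries in media and in NRF2 KO CM, below them in WT CM, as for 34.3% of all genes, and overlapping with them in KEAP1 KO CM. The log2 fold change of Cbr1 was 0.45 ± 0.11 in media, -0.060 ± 0.11 in WT CM, -0.021 ± 0.11 in KEAP1 KO CM and 0.55 ± 0.11 in NRF2 KO CM, with limma adjusted p of 0.0144, 0.767, 0.926 and 0.00196. In TPM the WT/CDDO-Me libraries did not overlap with WT/vehicle, but after scaling between libraries the difference was within its error. The call in media was lost without media/vehicle replicate 2 (0.41, adjusted p = 0.0751) and without media/CDDO-Me replicate 3 (0.37, adjusted p = 0.0917), and in KEAP1 KO CM the sign turned without KEAP1 KO/vehicle replicate 3 (0.081) or KEAP1 KO/CDDO-Me replicate 1 (0.020).

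Cbr3 was at 26.1, 25.8 and 30.8 TPM in media/vehicle, 27.1, 27.0 and 28.6 TPM in WT/vehicle, 24.2, 26.6 and 31.9 TPM in KEAP1 KO/vehicle and 23.2, 27.4 and 6.17 TPM in NRF2 KO/vehicle. After CDDO-Me it was at 174, 176 and 194 TPM in media, 61.6, 60.3 and 59.2 TPM in WT CM, 93.3, 72.6 and 67.8 TPM in KEAP1 KO CM and 191, 175 and 111 TPM in NRF2 KO CM. Each CDDO-Me library was above each vehicle library, but the WT/CDDO-Me libraries were the lowest of the CDDO-Me libraries and did not overlap with those of any other CDDO-Me group. Its log2 fold change was 2.69 ± 0.31 in media, 1.23 ± 0.31 in WT CM, 1.63 ± 0.31 in KEAP1 KO CM and 3.23 ± 0.31 in NRF2 KO CM (limma, adjusted p from 6.69e-07 to 0.00418). Without replicate 3 of NRF2 KO/vehicle, which was low, it was 2.65 in NRF2 KO CM.

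Ephx1 (chr1:180803775-180848537, minus strand) encodes microsomal epoxide hydrolase, which adds water to epoxides. It was at 91.7, 102 and 102 TPM in media/vehicle, 112, 123 and 103 TPM in WT/vehicle, 115, 128 and 90.2 TPM in KEAP1 KO/vehicle and 95.4, 117 and 84.4 TPM in NRF2 KO/vehicle. CDDO-Me libraries held 309, 328 and 261 TPM in media, 138, 161 and 123 TPM in WT CM, 155, 200.0 and 97.2 TPM in KEAP1 KO CM and 307, 324 and 222 TPM in NRF2 KO CM. The rise was clear in media and in NRF2 KO CM, whereas in WT CM and KEAP1 KO CM the CDDO-Me and vehicle libraries overlapped in unscaled TPM. CDDO-Me changed it by 1.60 ± 0.17 in media, 0.44 ± 0.17 in WT CM, 0.56 ± 0.17 in KEAP1 KO CM and 1.54 ± 0.17 in NRF2 KO CM on the log2 scale, with limma adjusted p of 3.76e-06, 0.0619, 0.0172 and 4.46e-06. In WT CM Ephx1 was past the threshold in 5 of 18 alternative fits. Among them were those with the replicate block (limma, adjusted p = 0.00775), with the compared groups only (0.00855) and with array weights (0.000561). In KEAP1 KO CM the call for Ephx1 was lost without KEAP1 KO/vehicle replicate 3 (0.44, adjusted p = 0.0981), KEAP1 KO/CDDO-Me replicate 1 (0.50, 0.0688) or KEAP1 KO/CDDO-Me replicate 2 (0.36, 0.13), without scaling between libraries (0.39, 0.173) and in a fit of the 6 KEAP1 KO CM libraries alone (adjusted p = 0.102). Ephx1 was highest in replicate 2 in 7 of 8 groups and lowest in replicate 3 in 7 of 8 groups, while the fibroblast marker sum was highest in replicate 2 and lowest in replicate 3 in all 8. A further fit took as a covariate the mean log2 level of the fibroblast markers that passed the filter, not their sum. There the log2 fold change of Ephx1 was 1.65 in media, 0.75 in WT CM (limma, adjusted p = 3.44e-05), 0.91 in KEAP1 KO CM (adjusted p = 5.78e-06) and 1.70 in NRF2 KO CM. The marker sum followed the replicate number and was lower on average with CDDO-Me in each CM, so this fit cannot tell these apart. The part of fibroblasts in the Ephx1 values was not tested.

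**Figure D2:**
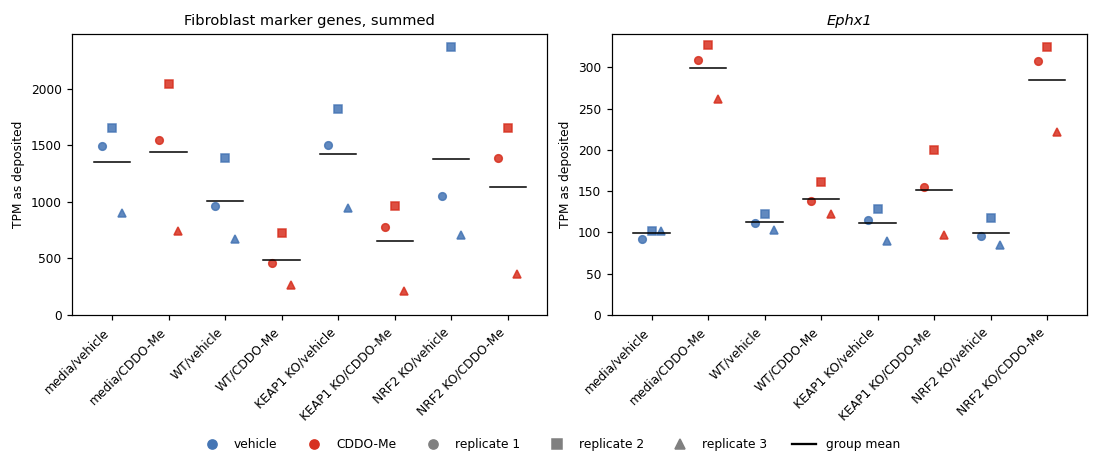
Summed TPM of 10 fibroblast marker genes (left) and TPM of Ephx1 (right) in each library, by group, with vehicle in blue, CDDO-Me in red, the replicate number as the marker and the group mean as a line. The marker sum is lowest in WT/CDDO-Me (mean 484 TPM) and KEAP1 KO/CDDO-Me (mean 653 TPM), the groups in which Ephx1 is lowest among the CDDO-Me groups (means 140.5 and 151 TPM). Over all 8 groups Ephx1 is lowest in media/vehicle and NRF2 KO/vehicle (means 98.8 and 99.0 TPM), where the marker sum averages 1350 and 1378 TPM.

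The glutathione transferases were the most abundant members. Gstm1 (chr3:107919380-107925380, minus strand) was at 775, 693 and 853 TPM in media, 255, 223 and 257 TPM in WT CM, 285, 280.3 and 275 TPM in KEAP1 KO CM and 828, 816 and 1188 TPM in NRF2 KO CM with CDDO-Me, above its vehicle libraries in each medium. The WT/CDDO-Me and KEAP1 KO/CDDO-Me libraries were, however, in the range of the media/vehicle libraries (261 to 307 TPM) or below it. Its log2 fold change was 1.48 ± 0.17 in media, 0.52 ± 0.17 in WT CM, 0.90 ± 0.17 in KEAP1 KO CM and 1.77 ± 0.17 in NRF2 KO CM, with limma adjusted p of 1.06e-05, 0.0258, 0.000355 and 8.05e-07. The call in WT CM was lost without WT/vehicle replicate 1 (0.55, adjusted p = 0.0514), WT/vehicle replicate 2 (0.41, 0.136), WT/CDDO-Me replicate 1 (0.48, 0.0893) or WT/CDDO-Me replicate 3 (0.47, 0.0941). It was also lost with the mean log2 level of the fibroblast markers as a covariate (0.27, adjusted p = 0.174). Of the 31-base stretches in Gstm1 transcripts, 14.8% also occur in transcripts of other genes, chiefly the pseudogene Gstm2-ps1 and Gstm3, so its values are uncertain to the extent that reads were divided between them.

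Gstp1 (chr19:4085405-4088068, minus strand) encodes the cytosolic glutathione transferase of the pi class and was highest with CDDO-Me in the media where Gstm1 was lowest. It was at 120.1, 139 and 121 TPM in media/vehicle, 121, 138 and 100.5 TPM in WT/vehicle, 134, 136 and 125 TPM in KEAP1 KO/vehicle and 133, 163 and 70.0 TPM in NRF2 KO/vehicle. In the presence of CDDO-Me it was at 286, 316 and 302 TPM in media, 452, 455 and 363 TPM in WT CM, 568, 544 and 404 TPM in KEAP1 KO CM and 385, 372 and 323 TPM in NRF2 KO CM. All CDDO-Me libraries were above all vehicle libraries, and those of WT CM and KEAP1 KO CM were above those of media. On the log2 scale it rose by 1.26 ± 0.18 in media, 1.95 ± 0.18 in WT CM, 2.09 ± 0.18 in KEAP1 KO CM and 1.67 ± 0.18 in NRF2 KO CM (limma, adjusted p from 2.96e-08 to 0.000153). Gstp1 shares 35.4% of its 31-base stretches with its neighbour Gstp2 and 20.8% with the pseudogene Gstp-ps, so the split of reads between them is uncertain. Gstp2 was listed at 0.00271 to 22.2 TPM, far below Gstp1 in every library, but its values come from that same split.

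Mgst1 (chr6:138117314-138133774, plus strand) encodes a membrane-bound glutathione transferase and peroxidase, and shared no 31-base stretch with another gene. It was at 129 to 237 TPM in the vehicle libraries and at 542 to 829 TPM in the CDDO-Me libraries, so that no library of one treatment reached the other. Mean levels with CDDO-Me were 631 ± 95.9 TPM (SD, n = 3) in media, 601 ± 53.5 TPM in WT CM, 744 ± 81.2 TPM in KEAP1 KO CM and 578 ± 31.5 TPM in NRF2 KO CM. Its log2 fold changes, 1.89 ± 0.18 in media, 1.72 ± 0.18 in WT CM, 2.10 ± 0.18 in KEAP1 KO CM and 2.06 ± 0.18 in NRF2 KO CM, were the most even of the glutathione transferases (limma, adjusted p from 3.04e-08 to 1.39e-06).

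**Figure D3:**
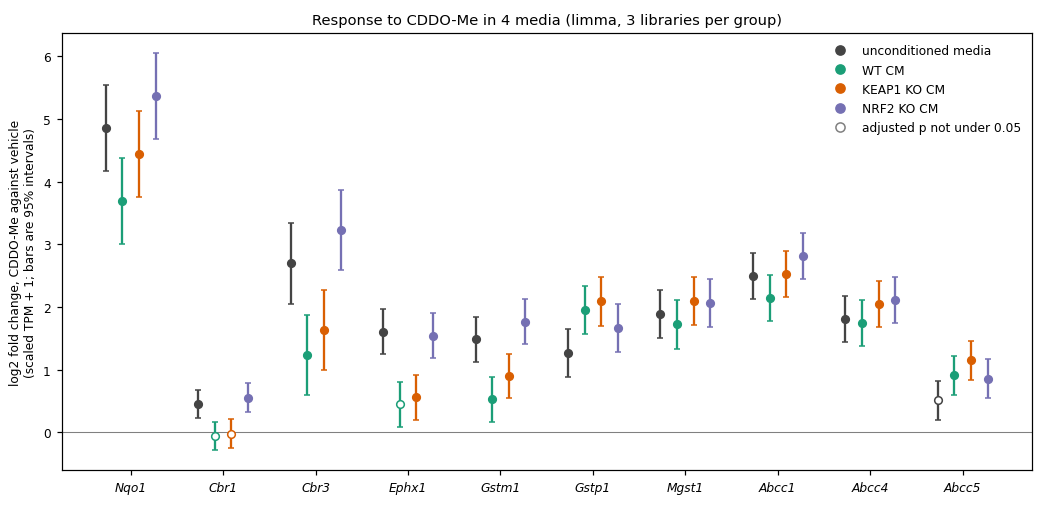
Log2 fold change (scaled TPM plus 1) of each member with CDDO-Me against vehicle in each medium, with 95% intervals from limma and open points where the adjusted p was not under 0.05. Nqo1 has the largest change in each medium (3.69 to 5.37), and the open points are Cbr1 in WT CM and KEAP1 KO CM, Ephx1 in WT CM and Abcc5 in media.

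The efflux pumps Abcc1 (chr16:14179311-14293601, plus strand), Abcc4 (chr14:118720103-118943924, minus strand) and Abcc5 (chr16:20150053-20245192, minus strand) use ATP to export glutathione conjugates and other organic anions, Abcc4 and Abcc5 cyclic nucleotides among them. Abcc1 was at 19.2 to 40.6 TPM in the vehicle libraries and 114 to 223 TPM in the CDDO-Me libraries. By group its CDDO-Me level was 189 to 207 TPM in media, 114 to 139 TPM in WT CM, 149 to 220.0 TPM in KEAP1 KO CM and 189.8 to 223 TPM in NRF2 KO CM. The lowest vehicle value, 19.2 TPM, was that of NRF2 KO/vehicle replicate 3. Abcc1 rose by 2.50 ± 0.18 in media, 2.14 ± 0.18 in WT CM, 2.53 ± 0.18 in KEAP1 KO CM and 2.82 ± 0.18 in NRF2 KO CM on the log2 scale (limma, adjusted p from 8.87e-10 to 3.11e-08).

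Abcc4 was the second lowest member without CDDO-Me, at 5.38 to 8.62 TPM, and was at 25.7 to 36.7 TPM in media, 18.5 to 21.6 TPM in WT CM, 26.8 to 28.9 TPM in KEAP1 KO CM and 30.7 to 47.8 TPM in NRF2 KO CM with CDDO-Me. The WT/CDDO-Me libraries were below all other CDDO-Me libraries. Abcc4 rose by 1.81 ± 0.18 in media, 1.75 ± 0.18 in WT CM, 2.05 ± 0.18 in KEAP1 KO CM and 2.11 ± 0.18 in NRF2 KO CM on the log2 scale (limma, adjusted p from 1.95e-08 to 1.36e-06).

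Abcc5 changed least of the pumps. With CDDO-Me it was at 119, 126 and 114 TPM in media, 99.1, 125 and 114 TPM in WT CM, 117, 115 and 114 TPM in KEAP1 KO CM and 101, 119 and 111 TPM in NRF2 KO CM and these groups overlapped, while the vehicle level was highest in media. The log2 fold change was 0.51 ± 0.15 in media, 0.91 ± 0.15 in WT CM, 1.15 ± 0.15 in KEAP1 KO CM and 0.85 ± 0.15 in NRF2 KO CM, with limma adjusted p of 0.0501, 8.13e-05, 5.13e-06 and 0.000692. In media the CDDO-Me libraries were above the vehicle libraries but the adjusted p missed the threshold. Replicates of the same number deviated together in media, and with the replicate number as a block the adjusted p of Abcc5 there was 0.0381. This brought the count of members to 10, where 786 of 13661 genes were called higher.

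Whether the CDDO-Me effect itself differed between media was tested by interaction contrasts, which compare log2 fold changes. Between WT CM and media, the effect differed for 4 of 10 members, all weaker in WT CM, where 15.3% of all genes were called and 6.73% were called lower. Between KEAP1 KO CM and media it differed for 4 members, 2 weaker and 2 stronger in KEAP1 KO CM, where 14.8% of all genes were called, 6.65% lower and 8.19% higher. These contrasts share the media libraries, so their values are not independent. Without the NRF2 KO replicate 3 libraries, which enter the estimate of the spread, 6 members were called in each of these contrasts. All genes called also went up there, from 2093 to 3835 for WT CM and from 2027 to 3949 for KEAP1 KO CM. No member and no gene was called between NRF2 KO CM and media (limma, 0 members and 2.63% of genes at an unadjusted p under 0.05), or between KEAP1 KO CM and WT CM (0 members and 1.64% of genes).

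Ephx1 had the smallest adjusted p in both contrasts. The difference of its CDDO-Me effect from that in media was -1.16 ± 0.24 in WT CM (limma, adjusted p = 0.00191) and -1.04 ± 0.24 in KEAP1 KO CM (adjusted p = 0.00462). With the mean log2 level of the fibroblast markers as a covariate these differences were -0.90 (adjusted p = 0.000202) and -0.74 (adjusted p = 0.00156). For Gstm1 the difference was -0.96 ± 0.24 in WT CM (limma, adjusted p = 0.00882) and -0.58 ± 0.24 in KEAP1 KO CM (adjusted p = 0.123), and with the covariate it was -1.17 (adjusted p = 0.000167) and -0.83 (adjusted p = 0.00463).

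Both carbonyl reductases responded less in WT CM. The difference for Cbr1 was -0.51 ± 0.15 in WT CM (limma, adjusted p = 0.0275) and -0.47 ± 0.15 in KEAP1 KO CM (adjusted p = 0.0437). For Cbr3 it was -1.46 ± 0.43 in WT CM (limma, adjusted p = 0.0258) and -1.07 ± 0.43 in KEAP1 KO CM (adjusted p = 0.116). When each of the 12 libraries was left out in turn, the WT CM call for Cbr1 was lost in 6 fits (-0.51 to -0.43, highest adjusted p = 0.0819), without media/vehicle replicate 2, WT/vehicle replicate 1 or 3, WT/CDDO-Me replicate 2 or 3, or media/CDDO-Me replicate 3. That for Cbr3 was lost in 5 fits (-1.43 to -1.38, highest adjusted p = 0.0608), without media/vehicle replicate 1 or 2, WT/vehicle replicate 3, WT/CDDO-Me replicate 2 or media/CDDO-Me replicate 3. The KEAP1 KO CM call for Cbr1 was lost in 10 of 12 fits (highest adjusted p = 0.123), that is in all but those without KEAP1 KO/vehicle replicate 1 or media/CDDO-Me replicate 2.

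Gstp1 and Abcc5 responded more in KEAP1 KO CM than in media. The difference was 0.83 ± 0.26 for Gstp1 (limma, adjusted p = 0.0363) and 0.64 ± 0.21 for Abcc5 (adjusted p = 0.0477), while in WT CM it was 0.68 ± 0.26 (adjusted p = 0.0889) and 0.40 ± 0.21 (adjusted p = 0.261). With single libraries left out, the KEAP1 KO CM call was lost in 10 of 12 fits for Gstp1 (highest adjusted p = 0.0959), in all but those without media/CDDO-Me replicate 3 or KEAP1 KO/CDDO-Me replicate 3, and in 12 of 12 fits for Abcc5 (0.53 to 0.70, adjusted p from 0.0527 to 0.125). For Nqo1, Mgst1, Abcc1 and Abcc4 no difference from media passed the test. The intervals of the WT CM minus media difference were -2.13 to -0.20 for Nqo1, -0.72 to 0.38 for Mgst1, -0.88 to 0.16 for Abcc1 and -0.57 to 0.46 for Abcc4 (95%, not adjusted). That of Nqo1 did not include 0, but its adjusted p was 0.107, and it was past the threshold in 5 of 24 alternative fits (adjusted p from 0.00515 to 0.291 over the 24). These were the fits without media/CDDO-Me replicate 2 (-1.498, adjusted p = 0.031), without scaling (0.0485), with array weights (0.00893), with the replicate block (0.0139) and with the fibroblast covariate (0.00515).

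**Figure D4:**
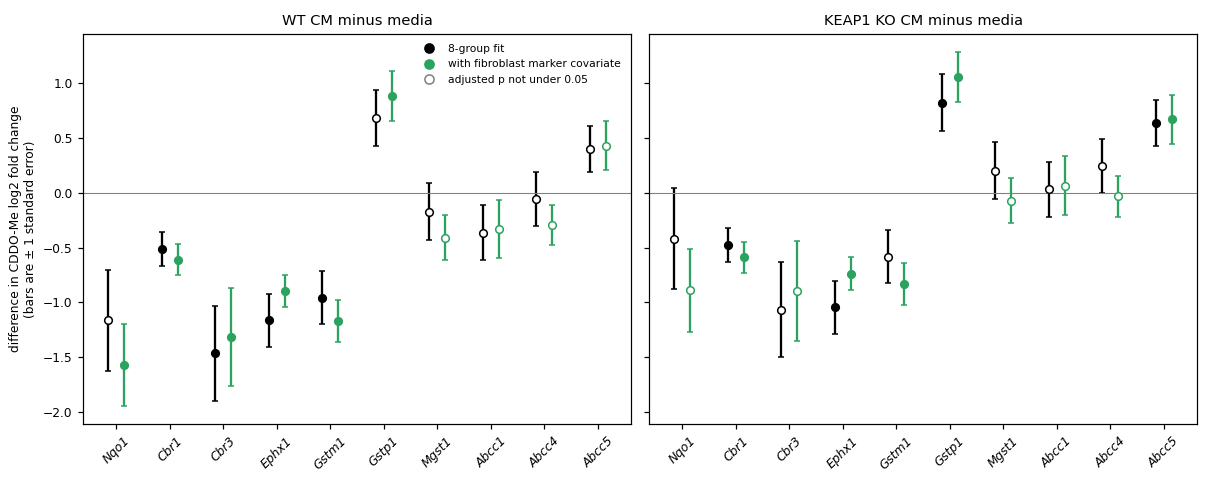
Difference in the CDDO-Me log2 fold change of each member between WT CM and media (left) and between KEAP1 KO CM and media (right), with 1 standard error on either side. Black points are from the fit of 8 groups and green points from the fit with the mean log2 fibroblast marker level as a covariate. Filled points passed an adjusted p of 0.05; Ephx1 and Cbr1 are below 0 and filled in both panels and both fits.

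The levels reached with CDDO-Me were also set side by side between KEAP1 KO CM and WT CM, a comparison added after the values were seen. Every KEAP1 KO/CDDO-Me library was above every WT/CDDO-Me library for 6 of 10 members (Nqo1, Cbr3, Gstm1, Mgst1, Abcc1 and Abcc4), where 6.28% of all genes had this pattern. The log2 difference was 0.82 ± 0.33 for Nqo1, 0.47 ± 0.18 for Abcc4, 0.42 ± 0.18 for Abcc1, 0.32 ± 0.31 for Cbr3, 0.28 ± 0.18 for Mgst1 and 0.17 ± 0.17 for Gstm1. No member passed the test (limma, 3 of 10 at an unadjusted p under 0.05 against 4.11% of genes, smallest adjusted p = 0.847), and 0.0439% of all genes, 6 in number, were called. Replicates of the same number deviated together here, and with the replicate number as a block 0 members and 37 genes were called.

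The order of the 8 groups differed between members. For Nqo1, Cbr3, Abcc1 and Abcc4 the CDDO-Me groups of media and NRF2 KO CM came first, then KEAP1 KO/CDDO-Me, then WT/CDDO-Me, and the libraries of the last pair did not overlap in any of the 4. For Gstp1 and Mgst1 the KEAP1 KO/CDDO-Me group came first, with means of 505 ± 88.5 and 744 ± 81.2 TPM (SD, n = 3), but its libraries overlapped with those of the next group. For Cbr1, WT/CDDO-Me and KEAP1 KO/CDDO-Me came last, below every vehicle group on average. Neighbouring vehicle groups overlapped for Nqo1, Cbr1, Cbr3, Ephx1, Gstp1, Mgst1 and Abcc1.

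Other genes of the pathway were read from lists chosen with earlier results of these data known. Of 8 further NRF2 targets, 8 rose with CDDO-Me in media, 6 in WT CM, 7 in KEAP1 KO CM and 8 in NRF2 KO CM, with medians of 2.10, 1.32, 1.67 and 2.29 on the log2 scale. In the same order, 3.22%, 14.4%, 14.4% and 4.87% of all genes were called higher. Gclm and Gclc, the subunits of the enzyme that starts glutathione synthesis, changed by 3.83 and 2.11 in media, but by 4.08 and 0.68 in WT CM, where Gclc did not pass (limma, adjusted p = 0.0681). Slc7a11, the cystine importer, rose by 2.87, 2.06, 3.40 and 3.18 in media and in WT, KEAP1 KO and NRF2 KO CM. Hmox1, which degrades haem, rose by 1.57, 0.79, 1.30 and 1.72 in the same order. Txnrd1 (thioredoxin reductase) rose by 1.40 to 2.09, Srxn1 (sulfiredoxin) by 2.03 to 3.11 and G6pdx, which supplies NADPH, by 1.08 to 1.42. Osgin1 rose in media (1.27) and NRF2 KO CM (1.15) and was 0.14 in WT CM and 0.78 in KEAP1 KO CM, not past the threshold. The CDDO-Me effect was weaker in WT CM than in media for 3 of the 8, Gclc (-1.43 ± 0.38, limma, adjusted p = 0.013), Hmox1 (-0.78 ± 0.24, adjusted p = 0.0342) and Txnrd1 (-0.68 ± 0.22, adjusted p = 0.0461), where 6.73% of all genes were called lower. Between KEAP1 KO CM and media it differed for 0 of 8, where 14.8% of all genes were called.

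Of 92 other detoxification and efflux genes, 91 were in the table and 68 passed the filter, and those named are the ones that changed most. With CDDO-Me, 17 rose and 1 fell in media, where 3.22% of all genes rose and 2.8% fell. In WT CM 18 rose and 9 fell (14.4% and 13.4% of all genes), in KEAP1 KO CM 24 rose and 7 fell (14.4% and 14.3%), and in NRF2 KO CM 22 rose and 1 fell (4.87% and 4.74%). The number that fell was near or below the share over all genes in each medium. Their median log2 fold changes were 0.26, 0.05, 0.14 and 0.37. Gsta4, a transferase for lipid aldehydes such as 4-hydroxynonenal, had the largest rise in each medium, from 5.25 ± 0.44 in WT CM to 5.97 ± 0.44 in media, and went from a mean of 1.44 to 167 TPM in media. Gsta3 followed in media (4.97 ± 0.32) and NRF2 KO CM (5.29 ± 0.32), Akr1c14 (2.46 ± 0.23) and the biliverdin reductase Blvrb (2.30 ± 0.14) in WT CM, and Aldh3a1 (3.18 ± 0.55) and Akr1c18 (3.10 ± 0.48) in KEAP1 KO CM. The third largest rise was that of Aldh1a3 in media (2.56 ± 0.39) and of Adh7 in NRF2 KO CM (3.19 ± 0.41).

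Dhrs3 and Cbr2 fell more with CDDO-Me in WT CM and KEAP1 KO CM than in media. Dhrs3, which reduces all-trans-retinal to retinol, fell by 0.92 in media and by 1.20 in NRF2 KO CM, but by 4.82 in WT CM and by 4.97 in KEAP1 KO CM on the log2 scale. Its mean went from 798 to 25.5 TPM in WT CM and from 482 to 253 TPM in media, and the interaction against media was -3.89 ± 0.29 for WT CM (limma, adjusted p = 5.89e-09) and -4.04 ± 0.29 for KEAP1 KO CM (adjusted p = 3.19e-09). Cbr2, a mitochondrial carbonyl reductase, fell by 4.38 in WT CM and 4.16 in KEAP1 KO CM, and its interaction against media was -4.36 ± 0.62 (adjusted p = 3.3e-05) and -4.14 ± 0.62 (adjusted p = 6.49e-05). The sulfotransferase Sult1a1 fell by 2.11 in WT CM and 2.33 in KEAP1 KO CM. Between media and the vehicle CM groups, the number of the 68 genes called was 5 with WT CM, where 7.23% of all genes were called, 6 with KEAP1 KO CM (8.06% of all genes) and 0 with NRF2 KO CM (0.00732% of all genes). These shares are near those of all genes.

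Over the 24 libraries, the genes whose log2 levels were most like those of Nqo1, among 10052 genes other than the members with a mean of at least 5 TPM, were Pgd (Pearson r = 0.985), Gclm (0.979), Panx1 (0.978), Gsta4 (0.975) and Srxn1 (0.973). Among the members, Abcc1 (0.985) and Abcc4 (0.984) were most like Nqo1, followed by Mgst1 (0.953), Cbr3 (0.928), Gstp1 (0.891), Abcc5 (0.857), Ephx1 (0.85), Gstm1 (0.782) and Cbr1 (0.574). Cbr1 was most like Gstm1 (0.883) and least like Gstp1 (0.199). These libraries hold 8 groups that differ by treatment and share library scaling, so the values describe the pattern over groups and carry no p.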

How the data were processed

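RNA of 24 libraries of BMDMs was measured by polyA RNA-seq, with 3 libraries in each of 8 groups. According to the study's methods, the authors quantified reads with kallisto on GRCm39 transcripts, filtered genes with low counts, scaled by TMM and tested with limma. The deposited table holds length-scaled TPM values per gene symbol, in which reads are divided by transcript length and scaled to a fixed total (999365 to 999801 per library), so sequencing depth is unknown, no counting interval can be given and the number of libraries sets the precision. No column lacked a sample. One line without a gene symbol, 0.0199 to 0.0635% of the TPM of a library, was left out.

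Levels in the text are TPM as deposited. For tests, TPM values were scaled by unweighted TMM factors (0.884 to 1.11, trimming 30% of log ratios and 5% of mean levels), genes were kept if they exceeded 1 TPM in 3 or more libraries (13661), and log2(scaled TPM + 1) was fitted with limma (version 3.58.1, R 4.3.3), all 8 groups in 1 fit with 16 residual degrees of freedom and a trended prior. P-values were two-sided, with Benjamini-Hochberg adjustment across the 13661 genes and a threshold of 0.05. Fold changes of low genes are understated by the added 1. Errors of log2 values are standard errors from limma and intervals are at 95%. The test was tested on simulated data first.

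Every member is named, together with fixed lists of other genes and, per comparison, the 3 largest rises and falls among other detoxification genes that passed the test. The members and lists were chosen with earlier results of these data known, and lists are described by counts and medians with no test of their own. Same-numbered libraries of different groups deviated together (mean r = 0.256 over 84 pairs, lowest 0.0231, against -0.121 for different numbers). Every pair exceeded 0.1 in 5 of 14 comparisons, called paired here. They were CDDO-Me against vehicle in media and in NRF2 KO CM, and WT/vehicle against media/vehicle. KEAP1 KO against WT, with vehicle and with CDDO-Me, were the others. The main fit had no block, so results for these comparisons are unpaired unless the replicate block is named. The pairing comes from the data, since the labels give only the number. Sequences and coordinates are from GRCm39 with GENCODE annotation, and figures were drawn with matplotlib 3.10.9.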

Additional observations from a re-analysis of the deposited data

Results flagged for a closer look

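The effect of CDDO-Me differed between media for 8 combinations of member and medium in the test of the difference itself, and each was a difference of log2 fold changes. In WT CM against media the values were -0.51 for Cbr1, -1.46 for Cbr3, -1.16 for Ephx1 and -0.96 for Gstm1. In KEAP1 KO CM against media they were -0.47 for Cbr1, -1.04 for Ephx1, 0.83 for Gstp1 and 0.64 for Abcc5. The contrasts share the media libraries. Of 24 alternative fits, the number past the threshold in WT CM was 18 for Cbr1, 17 for Cbr3, 24 for Ephx1 and 24 for Gstm1. In KEAP1 KO CM it was 13 for Cbr1, 24 for Ephx1, 12 for Gstp1 and 9 for Abcc5. The fibroblast marker sum was lower in the CDDO-Me groups of these media than in their vehicle groups, with means of 484 against 1009 TPM in WT CM and 653 against 1423 TPM in KEAP1 KO CM, while in media it was 1443 against 1349.5 TPM. With the mean log2 level of these markers as a covariate all 8 stayed past the threshold. The part of fibroblasts in the values was not tested.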

How the results depend on the processing

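The rise with CDDO-Me was past the threshold in each of 18 alternative fits per medium for Nqo1, Cbr3, Mgst1, Abcc1 and Abcc4 in all 4 media, and the count of members that rose stayed within 1.5 times throughout. Counts of members called changed by more than that elsewhere. For WT/vehicle against media/vehicle (0), it was 1 without scaling, 4 with array weights, 1 with the replicate block, 3 with the fibroblast marker covariate, 2 with the compared groups only and 2 without the NRF2 KO replicate 3 libraries. All genes called there were 1009, 4114, 1743, 1659, 2076 and 2552 in the same order, against 988 of 13661 in the main fit. For KEAP1 KO/vehicle against media/vehicle (2) it was 1 without scaling, where 1131 genes were called, and 0 to 2 with single libraries left out. For NRF2 KO/vehicle against WT/vehicle (0) it was 1 with RLE scaling, 1 without scaling, 3 with array weights, 3 with the block, 4 with the covariate, 1 without the NRF2 KO replicate 3 libraries and 0 to 2 with single libraries left out. From RLE scaling to the covariate, all genes called were 1408, 1379, 3395, 2550 and 2721, against 1449 in the main fit. For the difference between WT CM and media (4) it was 7 with array weights, where 5405 of 13661 genes were called, and 2 to 5 with single libraries left out. For KEAP1 KO CM against media (4) it was 2 without the filter, 2 without the trend, 7 with array weights and 1 to 2 with single libraries left out. With array weights 5327 of 13661 genes were called there. For KEAP1 KO/CDDO-Me against WT/CDDO-Me (0) it was 1 with array weights, where 262 of 13661 genes were called. The cause was not tested.

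Signs turned for small, uncalled values. The KEAP1 KO CM against media difference of Abcc1 was -0.12 without scaling and -0.14 to 0.12 with single libraries left out, and with the fibroblast covariate that of Mgst1 was -0.071 and of Abcc4 -0.028. With array weights Cbr1 in KEAP1 KO CM was 0.069 and the WT CM difference of Abcc4 was 0.089. With single libraries left out, Abcc4 in WT CM against media lay between -0.16 and 0.14, Nqo1 in KEAP1 KO CM against media between -0.75 and 0.041, and Cbr1 with CDDO-Me in KEAP1 KO CM between -0.10 and 0.081.

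With the replicate block, the counts of all genes called in the paired comparisons went from 822 to 1464 in media, 1313 to 1986 in NRF2 KO CM, 988 to 1743 for WT/vehicle against media/vehicle, 0 to 2 for KEAP1 KO/vehicle against WT/vehicle and 6 to 37 for KEAP1 KO/CDDO-Me against WT/CDDO-Me. The pairing changed no other call of a member there than Abcc5 in media and Gstm1 in WT/vehicle. Where the pairs did not all exceed 0.1, the block gave 1784 genes for KEAP1 KO/vehicle against media/vehicle (1101), 3 for NRF2 KO/vehicle against media/vehicle (1) and 2550 for NRF2 KO/vehicle against WT/vehicle (1449), while the members called went from 8 to 9 in WT CM and from 4 to 6 and 4 to 5 for the WT and KEAP1 KO CM differences from media, and 22 of 24 libraries correlated best with their own number. All genes called with the block were 4600 in WT CM (3809) and 2894 (2093) and 2943 (2027) for these differences.

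Counts of all genes called moved with array weights to 3523, 7127, 7006 and 2782 for CDDO-Me in media and in WT (3809), KEAP1 KO (3932) and NRF2 KO CM, 4114, 5012, 4, 975 and 3395 for the vehicle comparisons, 5405 and 5327 for the WT CM (2093) and KEAP1 KO CM (2027) differences from media, 7 and 26 for the other differences (0), and 262 for KEAP1 KO/CDDO-Me against WT/CDDO-Me (6). The fibroblast covariate gave 1573 in media, 2175 in NRF2 KO CM, 1659, 1779, 5 and 2721 for WT, KEAP1 KO and NRF2 KO vehicle against media and NRF2 KO against WT, and 29 for the last. The compared groups alone gave 1609, 139, 2076, 2225, 0 and 168 for the same 6, 3626 and 3414 for the differences, and 0 for the last. Without the NRF2 KO replicate 3 libraries they were 2021 in media, 5838 in WT CM, 6076 in KEAP1 KO CM, 2552 and 2850 for WT and KEAP1 KO vehicle against media, 3835 and 3949 for the differences, and 50 for the last. The last was also 3 with the stricter filter, 2 and 22 with an added 0.1 and 5, 10 without the trend, 19 without the filter and 1 to 21 with single libraries left out. NRF2 KO/vehicle against media/vehicle gave 2 without the filter, 0 without scaling and 0 to 3 with single libraries left out, and no filter gave 1 for KEAP1 KO against WT vehicle and 1 for the NRF2 KO CM difference. Single libraries left out gave 523 to 604 in media, 617 to 733, 705 to 916 and 810 to 2477 for WT and KEAP1 KO vehicle against media and NRF2 KO against WT, and 0 to 1 where no gene was called.

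Without scaling the median of all genes moved by -0.11 in WT CM and -0.15 in KEAP1 KO CM with CDDO-Me and by -0.13 for the KEAP1 KO CM difference, and the genes called higher and lower went from 1972 and 1837 to 1581 and 2459, from 1973 and 1959 to 1563 and 2950, and from 1119 and 908 to 934 and 1375. They went from 1173 and 920 to 995 and 1159 for the WT CM difference, from 599 and 389 to 486 and 523 for WT/vehicle against media/vehicle and from 514 and 935 to 769 and 610 for NRF2 KO/vehicle against WT/vehicle.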

Other observations

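Targets of the aryl hydrocarbon receptor, the sensor of polycyclic aromatic compounds, were read from a further list. Of 6 listed, 5 passed the filter, and 1 rose in media, 2 in WT CM, 3 in KEAP1 KO CM and 2 in NRF2 KO CM, and none fell. Of all genes, 3.22%, 14.4%, 14.4% and 4.87% rose in the same order, and 2.8%, 13.4%, 14.3% and 4.74% fell. Ugt1a6a, a glucuronosyltransferase, rose in each medium (log2 fold change 2.26, 1.28, 1.44 and 2.69 in media and in WT, KEAP1 KO and NRF2 KO CM). Aldh3a1, an aldehyde dehydrogenase, rose with WT CM (2.15), with KEAP1 KO CM (3.18) and with NRF2 KO CM (2.96), and was 1.56 in media (limma, adjusted p = 0.118). Ahrr, the receptor's repressor, rose in KEAP1 KO CM (1.27, adjusted p = 0.0153). Cyp1b1 was 0.99, 0.36, 0.11 and 0.72 and Tiparp was 0.099, 0.17, 0.25 and 0.096 in the same order, and neither passed the test in any medium. Ugt1a6a and Aldh3a1 are also known as NRF2 targets and stand in the list of other detoxification genes as well.

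Keap1 itself was at 36.7 ± 1.38 TPM (SD, n = 3) in media/vehicle and 47.2 ± 0.711 TPM in media/CDDO-Me, and at 37.6 ± 1.32 and 61.7 ± 0.616 TPM in the WT CM groups. Nfe2l2 was at 256 ± 22.4 and 162 ± 12.2 TPM in media, and at 182 ± 8.93 and 107 ± 14.9 TPM in WT CM, without and with CDDO-Me. In both media the groups did not overlap for either gene. Of all genes, 13.3% in media and 19.3% in WT CM were higher without overlap, as Keap1 was. In WT CM 34.3% were lower without overlap, as Nfe2l2 was, and the share lower in media is not given here. By limma the adjusted p was 0.466 and 0.00556 for Keap1 and 0.165 and 0.0613 for Nfe2l2, so only Keap1 in WT CM passed. Group levels of both genes in KEAP1 KO CM and NRF2 KO CM are not given here.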
